A study of Mus musculus with 6 samples.

Results

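Keratins are the intermediate filament proteins of epithelial cells, and 2 entries of the deposited expression table that hold them are described here: Krt18, and a joined entry of 7 symbols, Krt13_Krt14_Krt15_Krt16_Krt17_Krt19_Krt42. They were chosen by name, as 2 of the 8078 entries of the table, and the joined entry is read as a sum of type I keratins and not as any single gene. The cells were horizontal basal cells, the reserve stem cells of the mouse olfactory epithelium, from 12-week-old mice of the strain labelled B6;KRT5-CreER;Ai9 fl(Stop)TdTomato. In these mice a tamoxifen-inducible Cre recombinase driven by the keratin 5 promoter had turned on the red protein TdTomato 2 weeks before sorting, and cells of both groups were sorted on that colour. There were 3 libraries of uninjured mice, which had no exposure, and 3 of injured mice, which had breathed methyl bromide (180 ppm, 8 h) and were sampled 18 h later. That gas strips the tissue above the basal cells. Each library held cells pooled from several animals, per the labels. Any cell with an active keratin 5 promoter at the time of tamoxifen, and its progeny, could carry the colour.

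A keratin filament is built from pairs of 1 type I and 1 type II chain. In simple epithelium the pair is Krt8 with Krt18, whereas basal cells of layered epithelium pair Krt5 with Krt14, and Krt6 with Krt16 or Krt17 is the pair typical of wounded epidermis. In the olfactory epithelium Krt5 and Krt14 mark horizontal basal cells, and Krt8 with Krt18 is known from sustentacular cells and Bowman's glands. Krt5, Krt6 and Krt8 were not analysed here.

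Values are taken to be FPKM, fragments scaled for transcript length and library size, and read depth was unknown. Summed FPKM ranged from 164265 to 231755 per library, and 1.94% to 3.16% of entries stood at the table's lowest value, 0.001. Injured replicate 2 stood apart from the other injured libraries: Pearson correlations of log2(FPKM + 1) across entries, which are not independent replicates, were 0.734 and 0.754 with injured replicates 1 and 3 and 0.849 between those, against 0.885 to 0.905 between uninjured libraries. Injured replicate 2 correlated more closely with the uninjured libraries (0.804 to 0.830) than with the other injured ones. For injured replicates 1 and 3 the correlations with uninjured libraries were 0.788 to 0.805 and 0.803 to 0.825. Xist, an RNA made from the inactive X chromosome, was at 27.0 to 33.8 FPKM in uninjured and at 0.0645 to 0.561 FPKM in injured libraries, so that injury and the sex of the pooled animals cannot be told apart in any comparison below.

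The joined entry combines genes that lie near each other, some of which share 50-base stretches of sequence. In RefSeq's annotation of GRCm38.p6, which is not the build mm9 named for the files, its 7 genes lie on chromosome 11 in the order Krt13, Krt15, Krt19, Krt14, Krt16, Krt17 and Krt42, with Krt9, which the entry does not name, between Krt19 and Krt14. Krt18 lies on chromosome 15, in the cluster that otherwise holds type II keratins. In GENCODE M21 transcripts, 14.4% of the 50-base windows of Krt14 and 12.4% of those of Krt16 occurred in another gene of the joined entry, against 3.99% for Krt17, 0.268% for Krt42, 0.0606% for Krt15 and 0% for Krt13 and Krt19. A further 25.2% of the Krt16 windows occurred in Gm11597, an unprocessed pseudogene. Of the Krt18 windows 0% occurred in the joined entry and 0.720% in any other gene, in the processed pseudogenes Gm17847 and Gm5200. The sources used here do not give how the authors' counting assigned reads with several matches.

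The longest run of coding sequence shared by Krt14 and Krt16 is printed as an example. As it was picked for its identity, it does not measure how alike the members of the joined entry are. It is 134 bases long and lies in exon 1 of Krt14 (GRCm38 chr11:100207017-100207150, minus strand) and of Krt16 (chr11:100248476-100248609, minus strand). The best ungapped matches of that length in Krt17 (exon 1, chr11:100260638-100260771, minus strand) and Krt18 (exon 1, chr15:102028437-102028570, plus strand) are set below it. All are printed 5' to 3', and capitals mark bases that differ from Krt14.
Krt14: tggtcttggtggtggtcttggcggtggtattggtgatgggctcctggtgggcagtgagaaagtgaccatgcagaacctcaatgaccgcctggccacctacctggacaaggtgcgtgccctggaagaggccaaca
Krt16: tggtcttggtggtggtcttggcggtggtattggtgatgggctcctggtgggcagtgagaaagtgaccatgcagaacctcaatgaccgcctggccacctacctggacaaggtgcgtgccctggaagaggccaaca
Krt17: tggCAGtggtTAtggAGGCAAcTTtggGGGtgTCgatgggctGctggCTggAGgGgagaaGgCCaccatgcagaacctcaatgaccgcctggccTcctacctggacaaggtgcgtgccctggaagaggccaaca
Krt18: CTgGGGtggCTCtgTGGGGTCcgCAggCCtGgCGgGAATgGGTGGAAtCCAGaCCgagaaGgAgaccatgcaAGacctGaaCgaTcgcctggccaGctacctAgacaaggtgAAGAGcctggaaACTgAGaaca

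Krt16 had 0 differing bases by the choice of the stretch, Krt17 had 28 (79.1% identical) and Krt18 had 58 (56.7% identical). The remaining members of the joined entry were between 69.4% (Krt19) and 77.6% (Krt15) identical to Krt14 over this stretch. Krt23, a type I keratin of chromosome 11 outside the joined entry, was 64.9% identical. The longest exact run that the coding sequence of Krt18 shares with Krt14 was 22 bases.

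Krt18 was abundant in the libraries of uninjured mice. It stood at 133, 160 and 173 FPKM in uninjured replicates 1 to 3, a mean of 155 ± 20.04 (SD, n = 3), which ranked it between 106 and 120 from the top of the 8078 entries. In injured replicates 1, 2 and 3 it was at 390, 119 and 558 FPKM, a mean of 356 ± 222 (SD, n = 3), at ranks 38, 133 and 27. Injured replicates 1 and 3 lay above every uninjured library and injured replicate 2 lay below every one, so the groups overlapped. The ratio of the means was 2.29. As injured minus uninjured log2(FPKM + 1), Krt18 differed by 0.93 (SE 0.535, 95% interval -0.27 to 2.14), which did not pass (limma adjusted p = 0.542 over 7987 entries tested). An exact two-sided permutation test over the libraries gave p = 0.4, where the smallest p this design allows is 0.1.

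The joined entry was among the most abundant of the table and was even between uninjured libraries. It stood at 537, 521 and 507 FPKM in uninjured replicates 1 to 3, a mean of 522 ± 14.8 (SD, n = 3). Its coefficient of variation there was 2.84%, at or below which lay 2.03% of the entries tested, against a median of 20.4% over all of them. In injured replicates 1, 2 and 3 it was at 917, 355 and 853 FPKM, a mean of 709 ± 308 (SD, n = 3). These values too lay above every uninjured library in injured replicates 1 and 3 and below every one in injured replicate 2. Its ranks from the top were 16, 20 and 24 in uninjured replicates 1 to 3 and 14, 27 and 13 in the injured ones. The difference was 0.32 on the log2(FPKM + 1) scale (SE 0.439, 95% interval -0.66 to 1.30), which did not pass (limma adjusted p = 0.799). An exact two-sided permutation test gave p = 0.4. The size of this difference depended on the scaling of the libraries. It was 0.14 with upper-quartile scaling, 0.21 with quantile normalization and 0.16 with equal sums without Mir703, a small RNA entry that held 22.0% to 25.4% of summed FPKM in uninjured and 8.01% to 18.6% in injured libraries. These 3 scalings took the median difference of all entries tested from 0.16 to -0.01, 0.01 and 0.02, respectively. Library quality weights gave 0.59, and the joined entry passed under none of these.

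**Figure D1:**
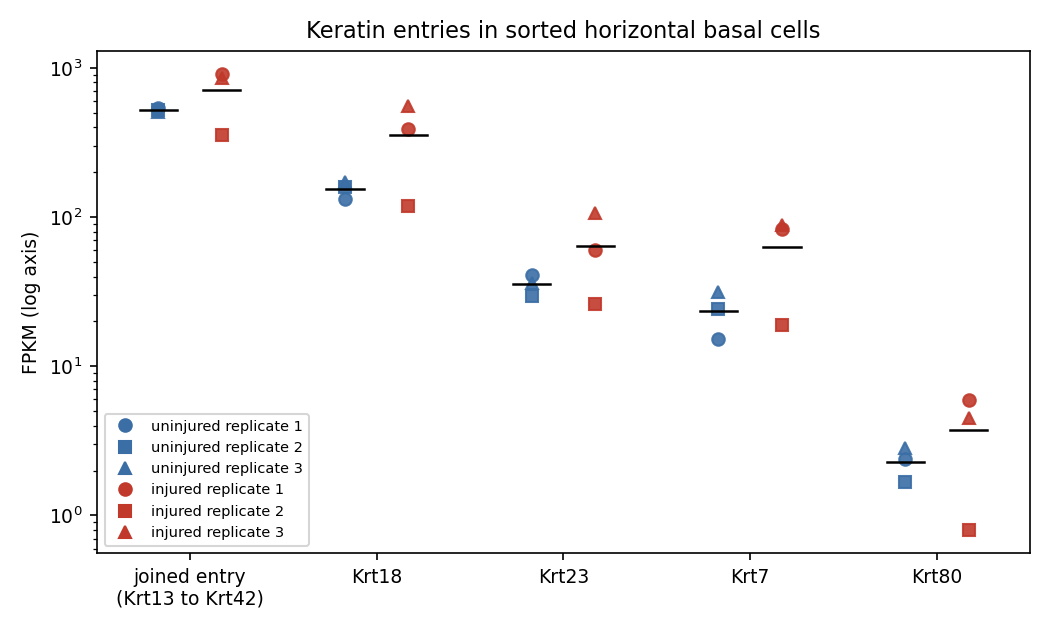
FPKM on a log axis of the 5 keratin entries in each library, uninjured in blue and injured in red, with marker shapes for replicate numbers and black lines for group means. For all 5 entries injured replicates 1 and 3 lie above the 3 uninjured libraries, and injured replicate 2 lies below them for each entry except Krt7, where it lies among them.

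The call on Krt18 turned on injured replicate 2. Without that library, which leaves 2 injured libraries, Krt18 was 1.59 higher on the log2 scale (SE 0.286, 95% interval 0.91 to 2.27) and passed (limma adjusted p = 0.0365, from 0.0365 to 0.834 over its alternatives). Without injured replicate 3 the difference was 0.48 and without injured replicate 1 it was 0.74, and neither passed. The joined entry was 0.76 higher without injured replicate 2 (SE 0.263, 95% interval 0.13 to 1.39) and did not pass (limma adjusted p = 0.145, from 0.145 to 0.964 over its alternatives). It was 0.08 without injured replicate 1 and 0.13 without injured replicate 3. Set against the mean of the uninjured libraries, Krt18 differed by 1.33, -0.38 and 1.85 in injured replicates 1, 2 and 3, while the median over all entries tested was 0.14, 0.01 and 0.18. Of all entries tested, 6.82% in injured replicate 1 and 2.23% in injured replicate 3 differed by as much as Krt18 or more in the positive direction. For the joined entry the differences were 0.81, -0.55 and 0.71, and the corresponding shares in injured replicates 1 and 3 were 18.0% and 20.6%.

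**Figure D2:**
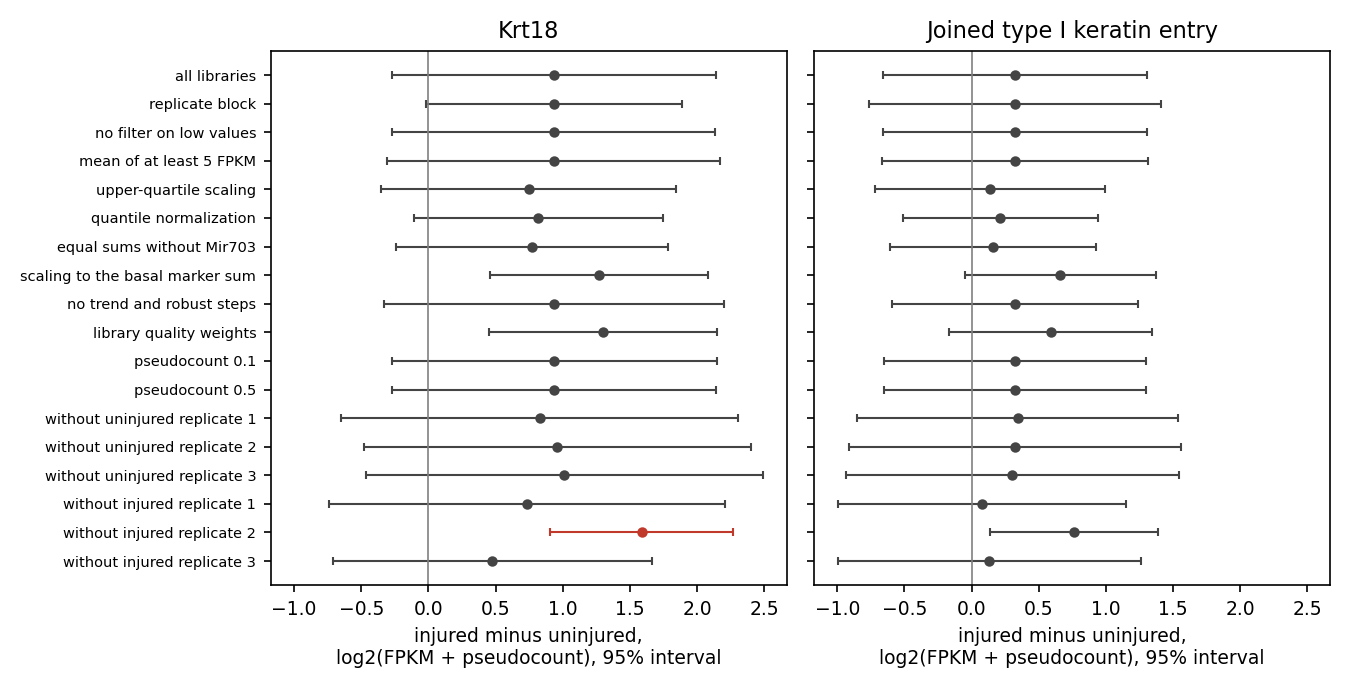
Difference in log2(FPKM + pseudocount), injured minus uninjured, of Krt18 (left) and the joined entry (right) under each way of fitting, with 95% intervals from limma. Red marks the fit in which the adjusted p is at most 0.05, which is that of Krt18 without injured replicate 2 (1.59), and every point estimate lies to the right of 0.

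The other 3 keratin entries analysed here showed a like pattern over the libraries. Krt7, a type II keratin of ducts and other simple epithelia, was at 15.2, 24.3 and 31.4 FPKM in uninjured replicates 1 to 3 and at 82.8, 19.0 and 88.3 in injured replicates 1 to 3. It was high in injured replicates 1 and 3, while injured replicate 2 lay within the uninjured range. Krt23, a type I keratin, was at 41.0, 29.8 and 36.1 FPKM in uninjured and at 59.8, 26.2 and 107 in injured replicates 1 to 3. Krt80, a type II keratin, was scarce, at 2.40, 1.67 and 2.83 FPKM in uninjured libraries against 5.94, 0.795 and 4.52 in injured replicates 1 to 3. The differences were 1.17 for Krt7 (SE 0.590), 0.63 for Krt23 (SE 0.458) and 0.33 for Krt80 (SE 0.548) on the log2(FPKM + 1) scale. That of Krt80 was -0.051 without injured replicate 1. Without injured replicate 2, Krt7 was 1.87 higher and passed (limma adjusted p = 0.0342, from 0.0342 to 0.834 over its alternatives).

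Of the 5 keratin entries, 0 passed in limma at an adjusted p of 0.05, and 0 were under an unadjusted p of 0.05. Of all entries tested, 0% were called higher and 0.0125% lower, and at an unadjusted p of 0.05 the shares were 7.15% higher and 4.04% lower. All 5 keratin entries had a positive difference, with a median of 0.63, where 5027 of 7987 entries tested were positive and their median was 0.16. The keratin median was 0.16 without injured replicate 3. Without injured replicate 2 it was 1.16 with 2 entries called higher, where 3.43% of all entries were called higher and 1.14% lower. Injured replicates 1 and 3 were above all uninjured libraries for 5 of 5 keratin entries, as for 29.4% of all entries tested. For 4 of the 5 injured replicate 2 was below all uninjured libraries, as for 30.6% of all entries, and both held for the same 4 and for 7.49% of all entries. For 0 of the 5 did the injured libraries all lie above the uninjured ones or all below them, where 12% and 6.75% of all entries tested did.

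A ratio within a library does not depend on how libraries were scaled, and it showed the balance between Krt18 and the joined type I keratins. The length behind the FPKM of the joined entry is not known, so the ratio is read across libraries and not as a ratio of molecules. FPKM of Krt18 divided by FPKM of the joined entry was 0.248, 0.307 and 0.340 in uninjured replicates 1 to 3 and 0.425, 0.334 and 0.654 in injured replicates 1 to 3. Injured replicates 1 and 3 lay above every uninjured library and injured replicate 2 within their range. On the log2 scale the ratio was -1.76 ± 0.231 (SD, n = 3) in uninjured and -1.14 ± 0.491 (SD, n = 3) in injured libraries. The difference of 0.61, 1.53-fold, had an exact two-sided permutation p of 0.2 (0.4 with Benjamini-Hochberg adjustment over 4 such ratios), in a design whose smallest p is 0.1, so no such ratio could pass a threshold of 0.05. Without injured replicate 2 the difference was 0.83 (exact permutation p = 0.1, the smallest that fit allows as well). Relative to the joined entry, Krt7 differed by 0.87 (exact permutation p = 0.2), Krt23 by 0.32 (exact permutation p = 0.5) and Krt80 by -0.02 (exact permutation p = 1). Krt18 relative to Krt7 was 8.80, 6.59 and 5.50 in uninjured and 4.70, 6.24 and 6.32 in injured replicates 1 to 3, a log2 difference of -0.26 (exact permutation p = 0.4).

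**Figure D3:**
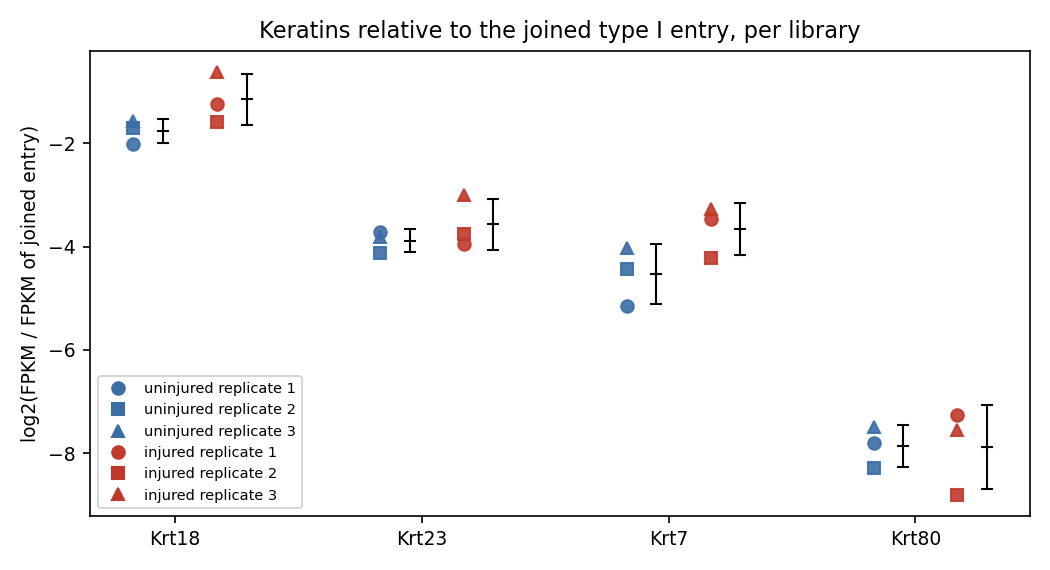
log2 of each keratin's FPKM over the FPKM of the joined entry in each library, uninjured in blue and injured in red, with means ± SD (n = 3) in black. The Krt18 ratio of injured replicate 2 lies among the uninjured libraries, and that of injured replicate 3 (-0.61) lies highest.

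Krt18 is known from several cell types of this tissue, so markers of the cells that the sort could hold were summed in each library. The 9 basal cell markers, led by the water channel Aqp3 and by Trp63, summed to 610, 767 and 865 FPKM in uninjured and to 646, 394 and 784 in injured replicates 1 to 3, lowest in injured replicate 2. Trp63, the transcription factor that holds these cells dormant, was at 187, 194 and 157 FPKM in uninjured and 112, 99.5 and 140 in injured libraries. The 4 of 9 sustentacular markers analysed summed to 176 to 205 FPKM in uninjured and to 123, 105 and 106 in injured replicates 1 to 3, below the uninjured range in all 3. Hes1, a Notch target, and Ermn, an actin-binding protein, were the most abundant of them, and Cyp2g1, a cytochrome that defines these cells, was not analysed here. Hes1 alone was at 88.3, 98.6 and 74.1 FPKM in uninjured replicates 1 to 3. The largest difference was that of Cyp1a2 (-2.18), named after its values were seen, against -0.65 for Hes1, -0.27 for Notch2 and -0.19 for Ermn. Cyp1a2 was at 35.3, 59.2 and 58.1 FPKM in uninjured and 5.93, 23.4 and 7.21 in injured replicates 1 to 3. The 6 of 12 gland and secretory markers summed to 6434, 7409 and 5431 FPKM in uninjured and to 7032, 2133 and 4640 in injured replicates 1 to 3, and most of this was Plunc and Reg3g, both secreted proteins of the airway lining. Neuronal genes were high in injured replicate 2: the 5 of 6 neuronal precursor markers summed to 148 FPKM there, led by Gap43 at 113, with Hes6 at 12.9, against 12.6 to 30.0 in the other 5 libraries. The 7 of 9 olfactory neuron markers, led by Stoml3 and Gng13, summed to 435 to 748 FPKM in uninjured and to 146, 361 and 126 in injured replicates 1 to 3. For these markers injured replicate 2 lay between the other injured libraries and the uninjured ones. Immune markers, 6 of 6 and led by Lyz1_Lyz2 and Cd74, summed to 260 to 463 FPKM in uninjured and to 921, 147 and 271 in injured replicates 1 to 3. The 4 of 6 microvillar markers, led by Coch and Cftr, summed to 85.2 to 114 in uninjured and 51.8, 131 and 23.5 in injured libraries. Ciliated cell markers (6 of 7, led by Dynlrb2 and Tppp3) summed to 48.2 to 106 and to 35.4 to 65.2 FPKM, and fibroblast markers (3 of 6, led by Dcn and Col1a2) to 126 to 220 and to 32.8 to 101. The 4 endothelial markers were not analysed here. The part of these cells in the keratin values was not tested, and fewer cells of a type cannot be told apart from less RNA per cell.

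**Figure D4:**
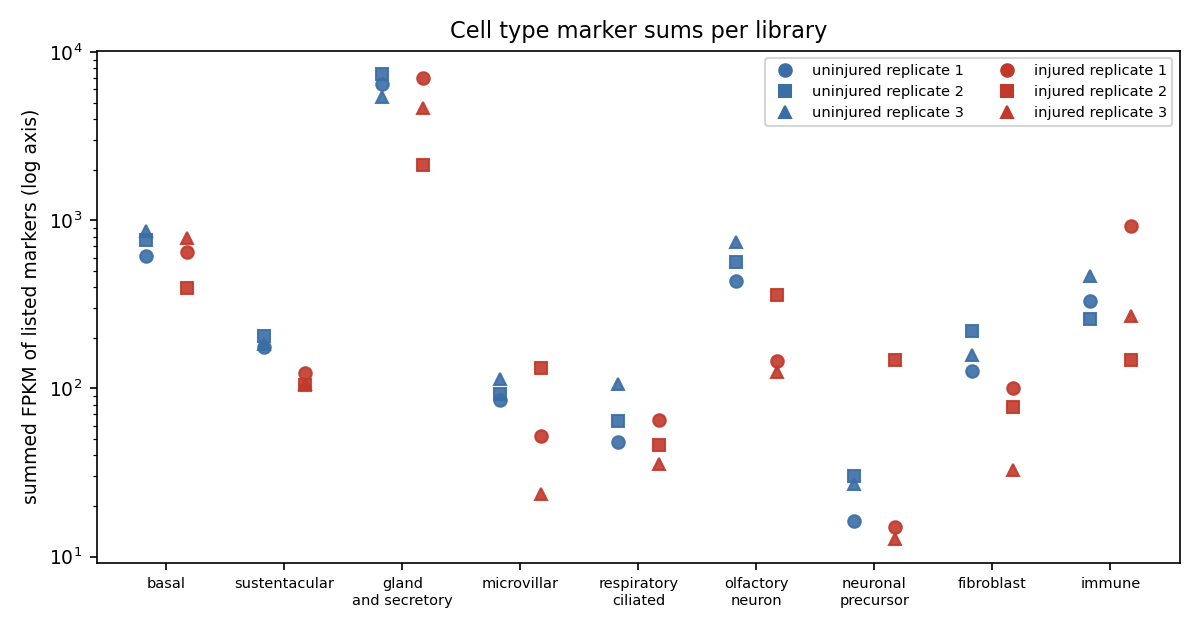
Summed FPKM of the listed markers of each cell type on a log axis, uninjured libraries in blue and injured in red. Injured replicate 2 has the lowest sum of basal cell markers (394) and the highest of neuronal precursor markers (148).

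Divided by the basal cell sum of the same library, a scaling chosen after the values were seen, Krt18 was at 0.219, 0.209 and 0.1996 in uninjured and 0.603, 0.301 and 0.713 in injured replicates 1 to 3. On this scale each injured library lay above each uninjured one. The joined entry was at 0.881, 0.679 and 0.587 in uninjured and 1.42, 0.902 and 1.09 in injured replicates 1 to 3, also without overlap. In limma with libraries scaled this way, neither Krt18 (difference 1.27, adjusted p = 0.151) nor the joined entry (0.66, adjusted p = 0.303) passed. Krt7 did not overlap either, and Krt23 and Krt80 did. Of all entries tested 25% lay above without overlap on this scale and 1.9% below, and their median difference was 0.46 in place of 0.16.

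The promoters of Krt18 and Krt7 are shown because these entries had the largest differences among the keratins. They are RefSeq's windows from 250 bases before to 50 after the start site in GRCm38.p6, matched by symbol, chr15:102027966-102028265 (plus strand) for Krt18 and chr15:101412153-101412452 (plus strand) for Krt7. Capitals mark matches, on either strand, to the letters of 4 motifs. The motif searched for AP-1 was TGANTCA. For the core element that binds the general transcription machinery it was TATAA, for Sp1 it was GGGCGG, and for NF-Y it was CCAAT.
Krt18: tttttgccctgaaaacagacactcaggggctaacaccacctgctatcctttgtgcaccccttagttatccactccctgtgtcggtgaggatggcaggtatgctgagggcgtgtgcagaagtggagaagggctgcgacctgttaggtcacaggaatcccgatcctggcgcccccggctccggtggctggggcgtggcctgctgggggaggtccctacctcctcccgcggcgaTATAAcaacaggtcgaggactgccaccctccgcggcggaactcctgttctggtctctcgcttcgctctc
Krt7: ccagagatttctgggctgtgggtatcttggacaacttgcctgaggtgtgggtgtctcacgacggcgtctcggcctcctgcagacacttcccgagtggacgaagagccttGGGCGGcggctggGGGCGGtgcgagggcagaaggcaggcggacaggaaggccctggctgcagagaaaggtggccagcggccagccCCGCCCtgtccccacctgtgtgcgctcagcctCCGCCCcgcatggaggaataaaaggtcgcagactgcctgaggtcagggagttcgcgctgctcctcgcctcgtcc

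Krt18 held 1 match to TATAA, from -19 to -15 relative to the start site, and Krt7 held 4 matches to the Sp1 letters, 2 on each strand, and no match overlapped another. The other motifs had no match in these windows. Further keratin windows were searched and are not printed. Among them, the windows of Krt13 held AP-1 letters, and Krt13 and Krt42 each had matches to TATAA and CCAAT. Those of Krt14 and Krt23 held no match. Of 32851 promoter windows, 24.9% held the core element, 35.7% the Sp1 letters, 37.4% the NF-Y letters and 7.81% the AP-1 letters. A match of letters is a description and shows no binding.

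Genes of the wider filament system, on lists of other intermediate filaments, linkers, binding proteins and transcription factors, held none past the threshold (limma adjusted p of 0.05). Among other intermediate filaments, 6 of 14 listed genes were analysed and all 6 had a positive difference, with a median of 0.75 and 0 under an unadjusted p of 0.05. Without injured replicate 2 the median was 0.21, with 3 positive and 3 negative, as the values of Vim, Ina and Prph, a filament protein of peripheral neurons, were then -0.18, -0.54 and -0.89. Library quality weights gave a median of 0.44 with 4 positive and 2 negative. Lmna, which encodes the nuclear lamins A and C, was at 10.2, 8.18 and 8.29 FPKM in uninjured and 38.7, 7.90 and 40.6 in injured replicates 1 to 3. It was high in the same 2 libraries as Krt18, and without injured replicate 2 it was 2.05 higher on the log2 scale, past the threshold. Vim, the filament protein of mesenchymal and other migratory cells, was at 11.2, 8.87 and 17.8 in uninjured and 12.3, 62.3 and 9.02 in injured libraries, high in injured replicate 2 alone. Ina, a neuronal filament protein, was at 23.7 FPKM in injured replicate 2 and at 0.001 to 2.53 in the other libraries.

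Linkers tie keratins to desmosomes and hemidesmosomes. Of 19 listed, 13 were analysed, 5 with a positive and 8 with a negative difference, with a median of -0.19 and 1 under an unadjusted p of 0.05. The direction of that median rested on injured replicate 2, without which it was 0.02 with 7 positive and 6 negative. It was -0.04 without uninjured replicate 2, 0.15 with libraries scaled to the basal marker sum and -0.36 with upper-quartile scaling. The most abundant were Perp, a desmosomal protein, at 141, 869 and 166 FPKM in uninjured and 252, 112 and 234 in injured replicates 1 to 3, the hemidesmosomal plakin Dst (61.5, 95.9 and 128, then 53.5, 50.8 and 94.999) and the desmosomal plakin Dsp (62.6, 76.9 and 74.1, then 71.7, 46.3 and 72.2). Dsp, which anchors keratins at desmosomes, lay within the uninjured range in injured replicates 1 and 3, where Krt18 was high. The linker under an unadjusted limma p of 0.05 was Ppl, named after its values were seen. It was at 2.47, 3.02 and 3.26 FPKM in uninjured and 5.77, 4.68 and 6.97 in injured replicates 1 to 3. Of the 13 linkers, 1 (Ppl) lay above without overlap and 1 (Dsg2) below. Itga6, the laminin receptor subunit of hemidesmosomes, named after its values were seen, was at 13.4 to 15.9 FPKM in uninjured and 32.0, 11.6 and 48.3 in injured replicates 1 to 3, and 1.35 higher on the log2 scale without injured replicate 2, past the threshold.

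Of 17 listed proteins that act on keratins, 11 were analysed, 6 with a positive and 5 with a negative difference, with a median of 0.10. The median was 0.47 without injured replicate 2, 0.21 without uninjured replicate 1 and -0.02 without injured replicate 3. It was -0.09 with upper-quartile scaling, so this list showed no steady direction. Ywhae and Ywhaz, adaptors of the family that binds phosphorylated Krt18, had 228, 362 and 387 and then 199, 168 and 199 FPKM in uninjured libraries. In the injured libraries the values were 522, 341 and 451 for Ywhae and 310, 196 and 337 for Ywhaz. The chaperone Hspa8, in an entry joined with LOC624853, was at 177, 139 and 167 in uninjured and 349, 159 and 471 in injured libraries, and it passed without injured replicate 2 (1.34 higher on the log2 scale).

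Of 20 listed transcription factors of simple and basal epithelium, 16 were analysed, 8 with a positive and 8 with a negative difference, with a median of -0.02 and 2 under an unadjusted p of 0.05, 1 in each direction. That balance depended on single libraries: 11 were positive with a median of 0.28 without injured replicate 2, and 3 were positive with a median of -0.42 without injured replicate 3. Leaving out injured replicate 1, uninjured replicate 1 or uninjured replicate 2 gave medians of 0.01, 0.03 and 0.04, and leaving out uninjured replicate 3 gave -0.06. Upper-quartile scaling gave -0.19 with 5 positive, and scaling to the basal marker sum gave 0.28 with 10 positive. Besides Trp63, the most abundant were the AP-1 subunits Fos (464, 243 and 276 FPKM in uninjured and 259, 104 and 473 in injured replicates 1 to 3) and Junb (49.1, 49.7 and 45.9, then 26.5, 10.2 and 59.8). Fosl1, an AP-1 subunit named after its values were seen, was at 1.10, 0.001 and 0.913 in uninjured and 25.3, 1.08 and 43.9 in injured replicates 1 to 3. It was 4.43 higher on the log2 scale without injured replicate 2, past the threshold. Grhl2, the factor under an unadjusted limma p of 0.05 in the negative direction, was also named after its values were seen. It was at 26.1, 24.2 and 39.9 FPKM in uninjured and 14.8, 10.2 and 23.9 in injured replicates 1 to 3. Without injured replicate 2 it differed by -0.61 and did not pass. Of the 16 factors, 3 lay below without overlap and 0 above, where 6.75% and 12% of all entries tested did.

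The entries most like each member over the 6 libraries were found by the root mean square difference of log2(FPKM + 1) values centred on their own means, over 5873 other entries with a mean of at least 5 FPKM. For Krt18 the nearest was Itga3, a laminin receptor subunit, at a difference of 0.07, with 12.4, 16.4 and 15.4 FPKM in uninjured and 40.4, 11.2 and 53.6 in injured replicates 1 to 3. Next came Odc1, the enzyme that starts polyamine synthesis, and Tuba4a, an alpha tubulin, both at 0.12, then Fam168a at 0.14 and Pls3, an actin-bundling plastin, at 0.15. The median over all entries was 0.80. Krt7 stood at place 39 (0.26), Krt23 at place 93 (0.31) and the joined entry at place 341 (0.44). For the joined entry the nearest was Ppp4c, a phosphatase subunit, at 0.04, with 17.9, 16.4 and 15.3 FPKM in uninjured and 30.5, 10.8 and 26.8 in injured replicates 1 to 3. It was followed by Tgfa, a ligand of the EGF receptor, at 0.08, the glutamine transporter Slc1a5 and the membrane protein Mal2, both at 0.09, and the TGF-beta effector Smad3 at 0.10, where the median over all entries was 0.51. From the joined entry, Krt23 stood at place 1120 (0.34), Krt18 at place 2110 (0.44) and Krt7 at place 3732 (0.59). Krt7 thus lay farther from the joined entry than the median entry did. The nearest 5 of Krt18 and of the joined entry had no entry in common, which says little for lists of 5 out of 5873.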

How the data were processed

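PolyA RNA of TdTomato-sorted cells was made into Nextera XT libraries, per the labels. A single table of expression values was deposited. The submitters' processing notes name FastQC, TopHat, Cuffdiff and mm9, without versions or roles. The scaling between libraries, annotation and filters are not given in the sources used here. Since Cuffdiff appears among the tools and the gene column has a Cuffdiff heading, the deposited values are read as FPKM made by the authors. Several symbols are joined in 131 entries.

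Entries with a mean of at least 1 FPKM (7987) were tested with limma 3.58.1 in R 4.3.3 on log2(FPKM + 1), injured against uninjured, with no covariate. Variances were moderated with trend and robust options, and p-values were adjusted by Benjamini-Hochberg with a threshold of 0.05. The code of the fit was run on simulated data with independent noise. That run does not tell how the fit handles a library that deviates as a whole, such as injured replicate 2. No 2 libraries held identical values. The labels do not say that libraries of a group share no animals. The limma p-values weigh group differences against the spread between these pooled libraries, not between single animals. Python 3.11.15 with matplotlib 3.10.9 made the figures.

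The members and lists were chosen with earlier results of these data known. Named were both members, all other keratin entries, the 3 most abundant of each list of roles and any past the threshold, the 2 most abundant markers of each cell type, and the 5 entries nearest to each member. Some further genes of the lists were named after their values were seen. A result on the list of proteins that act on keratins is not reported here. Alternatives left out each library, added a replicate block, or used other filters, scalings, variance models, pseudocounts and a threshold of 0.01, and, after the data were seen, scaling to the basal marker sum. Sequences came from RefSeq (GRCm38.p6, 6 of 11 keratin symbols matched a promoter) and GENCODE M21.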

Additional observations from a re-analysis of the deposited data

How the results depend on the processing

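Over all alternatives run, Krt18 and the joined entry kept a positive difference, and none but the fit without injured replicate 2 brought a keratin past the threshold. Leaving out 1 library at a time, the difference of Krt18 ranged from 0.48 to 1.59, that of the joined entry from 0.08 to 0.76, that of Krt80 from -0.051 to 0.92, and the log2 ratio of Krt18 to the joined entry from 0.35 to 0.83. The number of keratin entries called ranged from 0 to 2, of all entries called higher from 0 to 274, and of all called lower from 1 to 91. Against 0 higher and 1 lower with limma as described, library quality weights called 85 higher and 49 lower, and limma without trend and robust steps called 3 and 3. Upper-quartile scaling called 3 lower, quantile normalization 4 lower, a pseudocount of 0.1 called 2 lower, and scaling to the basal marker sum called 3 higher. The cause was not tested. Upper-quartile scaling took the difference of Krt18 from 0.93 to 0.75. Same-numbered libraries did not deviate together (correlations of -0.09, 0.07 and -0.08), and the numbers are not read as pairs. A replicate block called 134 higher and 87 lower, with 0 keratins, and left the adjusted p of Krt18 at 0.450. With the block the log2 ratio of Krt18 to the joined entry was 0.61 (exact sign-flip p = 0.25). Depth is unknown, and 3 libraries a group limit the precision.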
